A study of Rattus norvegicus with 3 samples.

Results

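Estrogen receptor alpha (ERα) peaks that touched no peak of the estrogen receptor beta (ERβ) list and no peak of the mock list are described here. They come from chromatin immunoprecipitation followed by sequencing (ChIP-seq) of enriched germ cells from the testes of Holtzman rats aged 75 to 90 days. The rats were of that strain without a stated genotype or treatment, and how many animals gave each library is not stated. The antibodies were anti-ERα (Millipore), anti-ERβ (Sigma) and anti-rabbit IgG for the mock, sequenced as paired reads of 75 bases. Each antibody has 1 library and 1 list of peaks, so no value below has a replicate error and no test between antibodies was possible. Intervals in parentheses are 95% intervals that cover counting error only. The germ cells were enriched by lysing interstitial cells and by filtering Sertoli cells away, and no expression values were at hand to check that enrichment. The members were chosen by the positions of peaks in the 3 lists: an ERα peak of 1 to 20000 bp that overlapped no ERβ and no mock peak by even 1 bp, on chromosomes 1 to 9, 11 and 13 to 20. The rule found 4019 members among 5156 ERα peaks on these 18 autosomes, 5347 ERα peaks in all and 33825 peaks in the 3 lists. Another 135 ERα peaks touched neither list but lay elsewhere, 87 of them on chromosome 10, 24 on chromosome 12 and 15 on chromosome X.

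ERα, encoded by Esr1, and ERβ, encoded by Esr2, are nuclear receptors that bind estrogens and then DNA, either directly at estrogen response elements or through other transcription factors. Both are known in the testis, where estrogen made by aromatase is present and where loss of ERα impairs male fertility. In ChIP-seq a bound site gives a local pile of sequenced fragments, here called tags, and a peak caller scores each pile against a background. A mock immunoprecipitation with IgG, which recognises no receptor, shows which piles arise without a receptor antibody.

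The members scored lower than the other ERα peaks and were mostly of similar width. Their median score was 38.48 (38.29 to 38.76), with a range of 30.61 to 110.32 and 90% of members at or below 47.36. The score is the authors' value per peak, deposited without a unit. The 1137 other ERα peaks of the same chromosomes, those that touched a peak of another list, had a median of 61.45 (58.51 to 64.62) and a highest value of 3206. Median scores were 33.97 for ERβ-alone peaks, which touched no ERα and no mock peak, and 34.5 for mock-alone peaks, which touched neither receptor list. The lists differ in their weakest peaks, as given below, so these medians are not like for like. A score of 50 or more was reached by 267 members (6.64%), 299 ERβ-alone (2.76%), 549 mock-alone (3.95%) and 714 other ERα peaks (62.8%). A score of 100 or more was reached by 5 members, 1 ERβ-alone, 3 mock-alone and 328 other ERα peaks. Members made up 92.1% of ERα peaks with scores from 34 to below 36, 60.8% of those from 50 to below 60 and 6.67% of those from 80 to below 120. Of 266 ERα peaks with a score of 120 or more, 0 were members, which allows a share of up to 1.38% (exact binomial limit). Member widths had a median of 570 bp (567 to 572) and ran from 313 to 1436 bp, and 84.3% lay between 450 and 650 bp. Median widths were 555 bp for ERβ-alone, 565 bp for mock-alone and 635 bp for other ERα peaks. In all, members covered 2296 kb, or 0.0937% of the sequence from each chromosome's start to its furthest peak.

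Score and width together placed every member on one of a small number of curves. Each score equalled -10 times the base-10 logarithm of the probability that a Poisson count exceeds a whole number. The mean of that count was 1 rate per list multiplied by the peak width, or by 400 bp where the peak was narrower. With a rate of 2.78 per kb, the formula matched 100% of the ERα peaks with a score below 200 within 0.02 of the deposited score. Giving the commonest score of narrow peaks any whole number other than 7 matched at most 2.14%, and replacing 400 bp by 350 or 450 bp matched 0.521% and 1.76%. The whole number is called the tag number below, because peak callers of the MACS kind compare tags in a peak with a Poisson background. No header or label states the formula. If the caller's probability included the count itself, every tag number would be 1 higher.

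**Figure D1:**
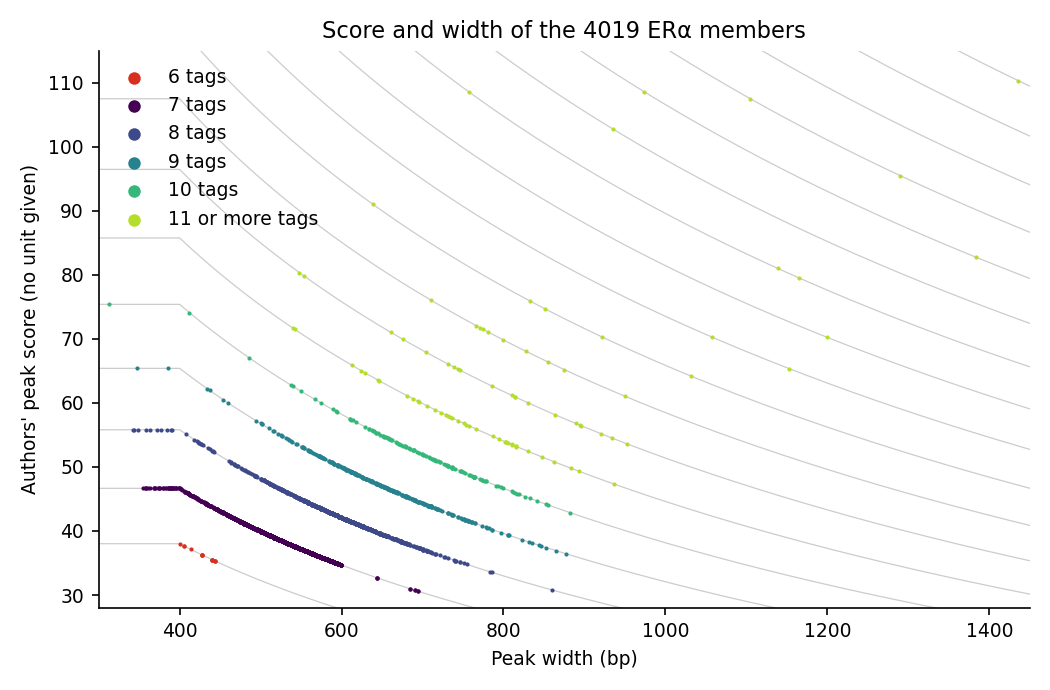
Score (vertical axis, no unit given) against width in bp (horizontal axis) for the 4019 members, coloured by tag number, with the fitted Poisson curves in grey. The points lie on the curves, the densest of which is that of 7 tags, and each curve is flat up to 400 bp.

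Most members held the smallest usual pile of the list. A tag number of 7 was found for 2706 members (67.3%), 8 for 793 (19.7%), 9 for 295 (7.34%) and 10 for 122 (3.04%). Only 40 members had 11 tags, 21 had 12 and 27 had 13 or more, with a highest tag number of 23. Another 15 members had 6 tags, all with widths of 401 to 444 bp and scores of 35.3 to 37.95. Among members of one tag number the score carried width alone: over the 2706 members with 7 tags, Spearman's rho between score and width was -0.999999, and the score fell from 46.66 in the narrowest to 30.61 in the widest. Over all 4019 members Spearman's rho was -0.13 and Pearson's r was 0.25, so the sign of the overall relation depends on the measure. These coefficients describe peaks of 1 library and have no test. A member of 7 tags and 355 bp therefore outscored one of 10 tags and 882 bp, at 46.66 and 42.88.

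Tags divided by the rate times the width (at least 400 bp) give a fold over the background rate. Its median was 4.65 in members (4.63 to 4.67), with a highest value of 9.0. In other ERα peaks the median was 5.87 (5.69 to 6.0) and the highest value 53.6. With the rate of their own list, ERβ-alone and mock-alone peaks had medians of 4.41 and 4.54 and highest values of 10.6 and 12.1. Among peaks of 7 tags the medians were 4.53 in members, 4.55 in ERβ-alone and 4.75 in mock-alone peaks. Of the 1134 other ERα peaks with a tag number, 466 had 13 tags or more, against 27 of the members. The median member score corresponds to a Poisson probability of 0.000142, not corrected for the number of positions scanned.

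**Figure D2:**
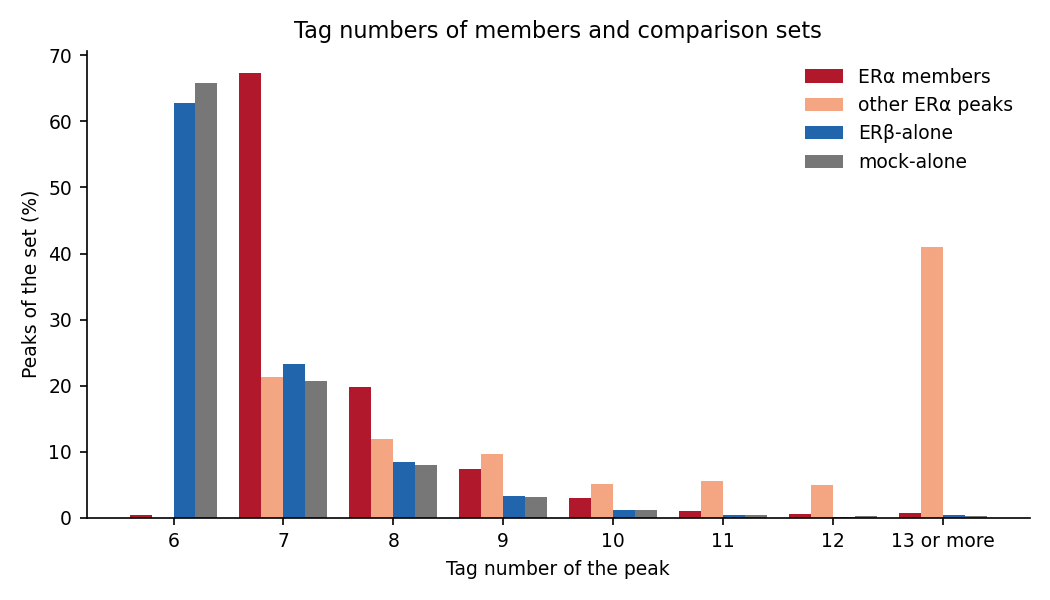
Percent of peaks (vertical axis) at each tag number (horizontal axis) for members, other ERα peaks, and the ERβ and mock peaks that touched neither other list. Members stand mostly at 7 tags, ERβ-alone and mock-alone peaks at 6, and other ERα peaks have 41.0% at 13 or more.

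The same formula held for the other lists, with rates of 2.60 per kb for ERβ and 2.48 per kb for mock. What the rates were counted from is not given in the sources used here. On the 18 autosomes only 15 ERα peaks had 6 tags, against 7137 ERβ peaks (58.6% of that list) and 9508 mock peaks (62.2%). At 7 tags or more the lists were of similar length, with 5141 ERα, 5047 ERβ and 5774 mock peaks. Median scores at 7 tags were 36.87 for members, 36.98 for ERβ-alone and 38.23 for mock-alone peaks. At 8 tags they were 42.32, 41.41 and 43.13, and at 12 tags 61.19, 60.54 and 58.83.

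At each lowest tag number from 7 to 10 the ERα list held fewer lone peaks than the mock list. Lone peaks were counted with the same rule in each list. In the full lists there were 4019 members, 10836 ERβ-alone and 13890 mock-alone peaks. The lists were then limited to 7 tags or more, a step added once the values were known, and the counts were 4175 for ERα, 4122 for ERβ and 4817 for mock. These were 81.2% (80.1 to 82.3), 81.7% (80.6 to 82.7) and 83.4% (82.4 to 84.4) of each list. With 8 or more tags they were 1467, 1619 and 1988, and with 10 or more tags 327, 340 and 421. At 10 tags the shares were 38.1% (34.8 to 41.4) for ERα, 38.9% (35.7 to 42.3) for ERβ and 46.0% (42.7 to 49.3) for mock. The ERα and ERβ intervals overlapped at 7, 8, 9 and 10 tags, and the mock share was the highest at each. Each list shows only what passed its caller, so a missing peak does not show that tags were absent there.

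**Figure D3:**
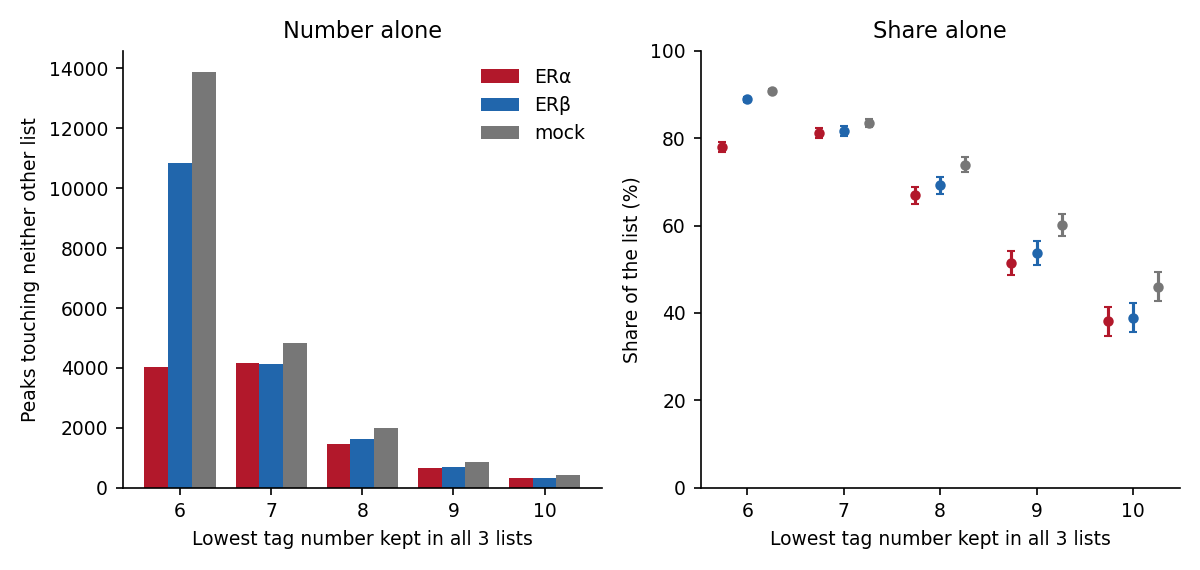
Number (left) and share in percent (right) of peaks that touched neither other list, for the ERα, ERβ and mock lists, against the lowest tag number kept in all 3 lists (horizontal axis). Bars are counts, points are shares with 95% exact binomial intervals, and the counts differ most at 6 tags, where the bars stand at 4019, 10836 and 13889 (1 mock peak has no score).

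In all 3 lists the share of peaks that stood alone was lower at 10 tags than at 7, and lower still at 20 or more. At 7 tags 91.8% of ERα peaks were members, at 8 tags 85.4% (82.9 to 87.6), at 9 tags 73.0% and at 10 tags 67.4% (60.1 to 74.2). At 11 tags the share was 38.5%, at 12 tags 26.9%, and at 20 tags or more it was 1.13%, from 3 of 265 peaks. In the ERβ list it was 93.2% at 7 tags, 61.8% at 10 and 0% of 262 peaks at 20 or more (upper exact limit 1.40%). In the mock list it was 93.3%, 69.2% and 1.80%. The rule used positions and not tag numbers, and these shares are given without a test.

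The member of highest score lay on chromosome 9 at 11552250 to 11553685. It was also the widest member, with 1436 bp, 23 tags and a score of 110.32, and the nearest peak of another list, a mock peak of 7 tags, lay 2697 bp away. The next lay on chromosome 5 at 154035176 to 154035932, with 17 tags in 757 bp, a score of 108.6 and a fold of 8.09 over the background rate. It was the most isolated of the leading 10, since the nearest peak of any list, an ERβ peak, was 658747 bp away. On chromosome 14 at 15438647 to 15439620 a member of 19 tags and a score of 108.58 lay 1473 bp from another member, 1852 bp from an ERβ peak of 6 tags and 2468 bp from a mock peak of 12 tags. The member on chromosome 1 at 197983228 to 197984332, with 20 tags and a score of 107.5, lay 118 bp from another member and 89777 bp from the nearest ERβ peak.

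The other 6 of the leading 10 differed in how near the other lists came. The member on chromosome 17 at 89416998 to 89417932 had 18 tags and a score of 102.79, with an ERβ peak of 17 tags 558 bp away and a mock peak of 14 tags 829 bp away. On chromosome 3 at 153046247 to 153046885, a member of 14 tags and a score of 91 lay 465 bp from a mock peak of 8 tags. The member on chromosome 16 at 21792525 to 21793072 had 12 tags and a score of 80.35, with an ERβ peak of 7 tags 777 bp away and a mock peak of 8 tags 910 bp away. On chromosome 9 at 72281257 to 72282395 a member of 17 tags and a score of 81 lay 917 bp from an ERβ peak of 8 tags. The member on chromosome 2 at 243347030 to 243348319 had 20 tags and a score of 95.5, with 42490 bp to the nearest ERβ and 44830 bp to the nearest mock peak. The member on chromosome 13 at 56367075 to 56368457 had 19 tags, a score of 82.79 and an ERβ peak of 9 tags 10130 bp away. Of these 10 regions, 4 lay within 1 kb and 6 within 10 kb of a peak of another list, and 8 were wider than 90% of all members. Among all 4019 members, 7.59% lay within 1 kb and 34.1% within 10 kb of a peak of another list. No gene is assigned to any of them, because no annotation of the files' build was at hand.

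The remaining widest members lay on chromosome 3 at 144024701 to 144025900, with 16 tags in 1200 bp, and on chromosome 15 at 5139008 to 5140172, with 17 tags in 1165 bp. The members farthest from any peak had 7 tags or fewer, as did 67.7% of all members. The farthest, on chromosome 7 at 116054055 to 116054634, had 7 tags, a score of 35.65 and no peak of any list within 929736 bp. Next came a member of 6 tags on chromosome 20 at 7152627 to 7153066, with 890228 bp to any peak. Members of 7 tags on chromosome 3 (11229431 to 11229996) and chromosome 5 (158201461 to 158202051) had 869057 and 814160 bp. The fifth, also of 7 tags, lay on chromosome 7 at 27682072 to 27682599, with 746252 bp. In all, 325 members (8.09%) had no other peak of any list within 100 kb, and 0 had none within 1 Mb.

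The peaks nearest the edge of the rule are given by position. Just inside it, the member on chromosome 17 at 47834845 to 47835267 was separated by 6 bp from an ERβ peak and had 8 tags. Members on chromosome 7 at 19724160 to 19724751 and on chromosome 18 at 20795500 to 20796056 had 7 tags each and lay 7 bp from a mock peak and 12 bp from an ERβ peak. Just outside it, ERα peaks of 7 tags on chromosome 8 at 92021403 to 92021976 and on chromosome 3 at 151824710 to 151825275 overlapped an ERβ peak by 2 and 5 bp. Another, on chromosome 1 at 124299019 to 124299603, had 7 tags and overlapped a mock peak by 8 bp. A gap of at most 100 bp was found for 39 members, and an overlap of at most 100 bp for 44 other ERα peaks. One member also depends on a damaged line of the ERβ list, which was left out. That line has an implausible start on chromosome 17 and an end at 47825097, inside the member at 47825035 to 47825575.

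Some members lay near, though not on, peaks of the other lists. An ERβ peak lay within 10 kb of 719 members (17.9%) and a mock peak within 10 kb of 969 (24.1%), and 1370 (34.1%) had one or the other. The median gap was 46.9 kb to the nearest ERβ peak and 31.9 kb to the nearest mock peak. Of ERβ-alone peaks 24.4%, and of mock-alone peaks 22.1%, lay within 10 kb of a peak of either other list. The 3 lists differ in length, so peaks of 7 tags or more were also used. Of 4004 members with 7 tags or more, 9.69% (8.79 to 10.6) lay within 10 kb of one of 5047 such ERβ peaks. Of the same members, 11.7% (10.7 to 12.7) lay within 10 kb of one of 5774 such mock peaks. The median gaps were 132.6 and 105.9 kb. For comparison, 9.68% of the 4031 ERβ-alone peaks with 7 tags or more lay within 10 kb of an ERα peak, and 11.8% within 10 kb of a mock peak. For the 4747 mock-alone peaks with 7 tags or more the shares were 10.4% for ERα and 10.2% for ERβ peaks. An ERα peak of the other set, those that touched another list, lay within 10 kb of 145 members (3.61%). That set held only 1137 peaks, against 12184 ERβ and 15283 mock peaks. The share was not adjusted for this, so it does not show whether members lay nearer to or farther from other ERα peaks. Members of 10 tags or more lay within 10 kb of another list in 47.1% of cases (40.2 to 54.1), against 32.8% (31.02 to 34.58) for members of 7 tags or fewer.

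**Figure D4:**
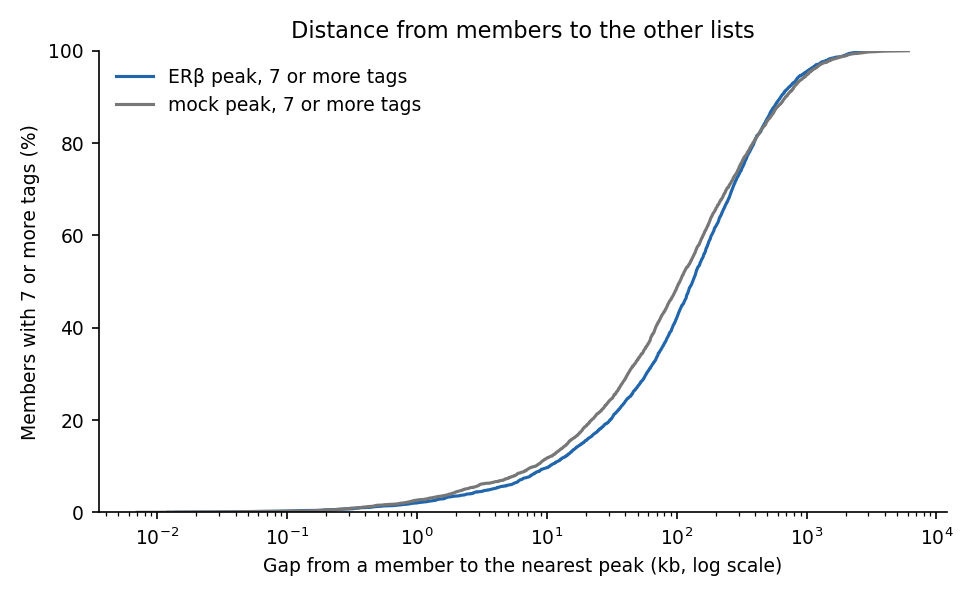
Cumulative percent of the 4004 members with 7 tags or more (vertical axis) against the gap in kb to the nearest ERβ or mock peak of 7 tags or more (horizontal axis, log scale). The mock curve lies above the ERβ curve at 10 kb (11.7% and 9.69%) and at 100 kb (48.6% and 42.1%), and the curves meet at larger gaps.

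Few members lay within 10 kb of another member, and distances were set beside the mean spacing of the set. Peaks placed at random would also have a median nearest distance below the mean spacing, and a random spread was not modelled. The ratio of distance to mean spacing is therefore a description and does not show clustering. The median distance between midpoints to the nearest other member was 147.0 kb (138.9 to 155.5), which is 0.241 of the mean spacing of 609.9 kb. The same ratio was 0.254 in ERβ-alone and 0.199 in mock-alone peaks, but 0.00174 in other ERα peaks, whose median distance was 3.75 kb. When members with at most 10 kb between edges were linked into chains, 304 members (7.56%, 6.77 to 8.43) fell into 143 chains, of which 129 held 2 members, 10 held 3 and 4 held 4. Among other ERα peaks 66.5% were in chains, the longest with 31 peaks. At 7 tags or more the share in chains was 7.54% (6.74 to 8.40) for members, 6.77% (6.02 to 7.59) for ERβ-alone and 10.7% (9.82 to 11.6) for mock-alone peaks. Chained members had a median score of 40.2 (39.1 to 41.2) against 38.4 (38.2 to 38.7) for single ones. Of chained members 59.5% lay within 10 kb of a peak of another list, against 32.0% of single ones.

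Peaks of both other lists lay within the span of each of the 5 leading chains, which are not a sample of the 143. The chain of highest summed score among those of 4 lay on chromosome 17 at 47825035 to 47835267, with tag numbers of 7, 12, 9 and 8, and 3 ERβ and 4 mock peaks lay between its ends. Its first member is the one that depends on the damaged line. The chain on chromosome 2 at 146996008 to 147014153 had 8, 8, 7 and 8 tags and enclosed 2 ERβ and 5 mock peaks. On chromosome 3 at 143883123 to 143900181 the members had 8, 7, 11 and 7 tags, with 4 ERβ and 3 mock peaks inside. The chain on chromosome 7 at 19715044 to 19725972 had 7, 7, 7 and 8 tags, with 4 ERβ and 2 mock peaks. The leading chain of 3, on chromosome 3 at 153034974 to 153046885, ended in the member of 14 tags described above and enclosed 2 ERβ and 5 mock peaks.

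In 1-Mb windows the members were more even than the rest of the ERα list. Of 2444 windows, 717 (29.3%) held no member, 685 held 1, 436 held 2 and 5 held 10, the most in any window. The variance of the count was 1.72 times its mean. At 7 tags or more this ratio was 1.72 for members, 1.68 for ERβ-alone and 2.58 for mock-alone peaks. For other ERα peaks it was 16.1, with 88.5% of windows empty and 51 peaks in the fullest. The 76 windows with 20 or more mock peaks held 8.61% of members (7.76 to 9.52), 6.88% of ERβ-alone, 9.59% of mock-alone and 53.3% of other ERα peaks (50.3 to 56.2), and were 3.11% of all windows. The mock-alone share is raised by the choice of these windows, which were picked for their mock peaks. The share of other ERα peaks is partly set by the rule, since 658 of them touched both lists and 251 touched mock alone. Across the windows, Spearman's rho of the member count was 0.46 with ERβ-alone and 0.53 with mock-alone peaks, and 0.17 with other ERα peaks. Against ERβ-alone and mock-alone peaks of 7 tags or more it was 0.37 and 0.45. Other ERα peaks were missing from 88.5% of windows, so their value is not like for like. These values have no test, since windows share their chromosome and each set its library, and sequence composition and mappability were not measured.

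The 5 windows with 10 members also held lone peaks of the other lists, as did most windows. Of all 2444 windows, 6.91% held no ERβ-alone and 9.86% no mock-alone peak, and the means were 4.41 and 5.65 per window. The window of chromosome 4 from 12000001 to 13000000 held 10 members and no other ERα peak, 8 ERβ-alone and 14 mock-alone peaks, and its members scored 34.73 to 52.45. The window of chromosome 6 from 140000001 to 141000000 held 12 ERβ-alone and 19 mock-alone peaks, with member scores up to 69.89. On chromosome 7 the window from 19000001 to 20000000 held 18 ERβ-alone and 12 mock-alone peaks, and that from 109000001 to 110000000 held 14 and 18. The window of chromosome 14 from 22000001 to 23000000 held 16 and 21 of these, and only there were members the smaller part of its 29 ERα peaks. The longest stretch between members ran on chromosome 1 from 206253300 to 218532065, 12.3 Mb with 0 ERα, 22 ERβ and 7 mock peaks. The next, on chromosome 3 from 1834105 to 11229713, held 0 ERα, 10 ERβ and 4 mock peaks in 9.40 Mb. In both stretches the other lists were sparse too, since the 18 autosomes averaged 4.42 ERβ-alone and 5.67 mock-alone peaks per Mb.

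Chromosomes were filled with members in a similar order as with lone peaks of the other lists. Density was lowest on chromosome 1, at 1.11 members per Mb, and highest on chromosome 11, at 2.30, with 1.64 over all 18. Chromosome 15 followed at 2.15 and chromosome 9 at 1.94, while chromosome 13 had 1.29 and chromosome 5 had 1.33. ERβ-alone peaks were likewise sparsest on chromosome 1, at 3.49 per Mb, and densest on chromosome 11, at 5.98, as were mock-alone peaks at 3.92 and 8.37. Spearman's rho over the 18 chromosomes was 0.83 between members and ERβ-alone peaks, 0.87 between members and mock-alone peaks and -0.05 between members and other ERα peaks. These are descriptions over chromosomes that share all 3 libraries.

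**Figure D5:**
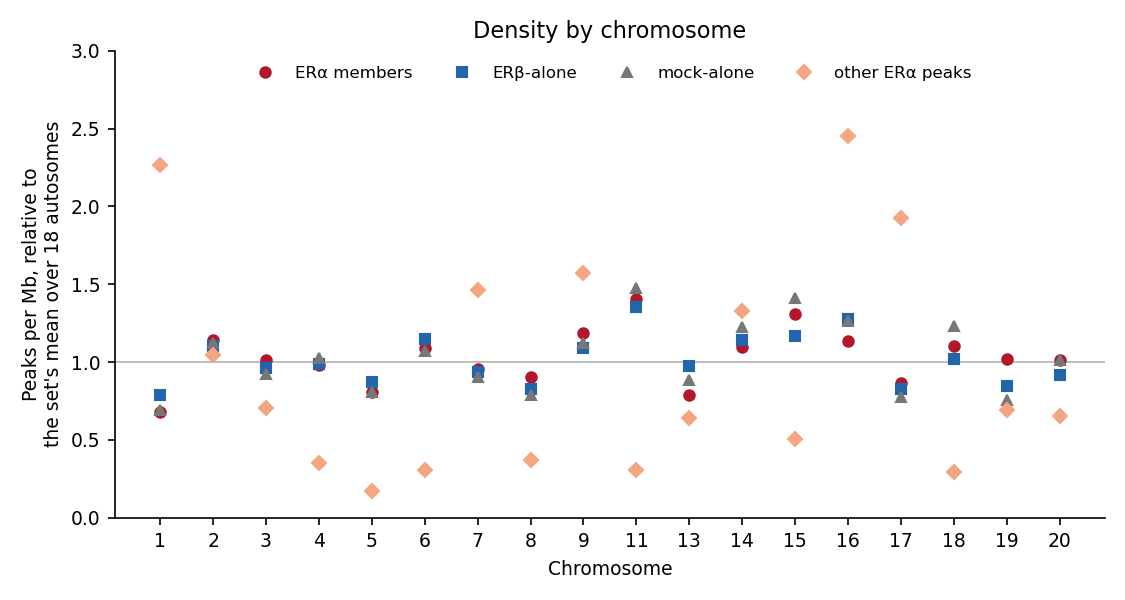
Peaks per Mb on each of the 18 autosomes (horizontal axis), divided by the mean density of the set (vertical axis), for members, ERβ-alone, mock-alone and other ERα peaks. Members follow the ERβ-alone and mock-alone peaks, with chromosomes 11 and 15 high and chromosome 1 low, whereas other ERα peaks stand highest on chromosomes 16, 1 and 17.

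The share of members on a chromosome, relative to its share of ERβ-alone peaks, ran from 0.804 on chromosome 13 to 1.21 on chromosome 19. Relative to mock-alone peaks it ran from 0.890 on chromosome 13 to 1.35 on chromosome 19 (log-ratio interval 1.08 to 1.69, from 104 and 266 peaks). A difference of 1.5-fold either way was reached on 0 of 18 chromosomes against each reference (0%). When lists were cut to 7 tags or more before touching was judged, chromosome 19 passed that limit against ERβ-alone, at 1.54 (1.15 to 2.06) from 114 and 73 peaks. No chromosome then passed it against mock-alone. With touching judged in the full lists and peaks of 7 tags or more kept, chromosome 19 did not pass, at 1.45 (1.08 to 1.96) from 104 and 72 peaks. When lists were cut to 8 tags or more first, chromosome 8 at 1.63 and chromosome 19 at 1.60 passed the 1.5-fold limit against ERβ-alone. The limits by tag number came after the values were known, and peaks in chains are not independent.

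Members took very different shares of the ERα list by chromosome. They were 51.4% (47.3 to 55.4) of ERα peaks on chromosome 1, 61.4% on chromosome 17, 62.1% on chromosome 16 and 69.7% on chromosome 7. They were 94.3% (90.6 to 96.8) on chromosome 5, 94.1% on chromosome 11 and 93.0% on chromosome 18. The density of other ERα peaks varied more than that of members, from 0.0806 to 1.14 per Mb. Member scores differed little, with chromosome medians from 37.5 on chromosomes 11 and 18 to 40.02 on chromosome 19. The highest member of a chromosome scored from 56.64, on chromosome 11, to 110.32, on chromosome 9.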

How the data were processed

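Reads were aligned with Bowtie 1.2, per the submitters' processing notes, and the deposited peak names begin with MACS. The sources used here do not give the caller's version, cutoff or control, nor the genome build and read depth. Each deposited list gives position and the authors' score, a number with no stated unit. Start and end positions, in bp, are used as the authors deposited them, with starts written 1-based. The ERβ list lost 2 damaged lines of 12730, and 1 mock line was kept without a score. Overlap was counted with pandas 2.3.3 and numpy 2.4.6 under Python 3.11.15, with scipy 1.17.1 for intervals and matplotlib 3.10.9 for plots, and checked with bedtools 2.31.1, which also gave 4019 members. The score formula was fitted to each list with a score below 200, trying tag numbers of 2 to 19 for the commonest score of narrow peaks (5 to 8 where 400 bp was replaced); it left 4 ERα, 4 ERβ and 3 mock peaks unmatched. Overlap and tag numbers were tested on simulated data. Shares carry exact Clopper-Pearson intervals, medians order-statistic intervals, and ratios log-normal ones. Named regions are the 10 highest, 5 widest and 5 most isolated members, the 5 fullest windows, the 5 leading chains and the 3 nearest the rule's edge on each side. Members and lists were chosen with earlier results of these data known, and the tag number was added after the data were seen. The gene and promoter tables at hand are of another build, so genes and sequences were not analysed here.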

Additional observations from a re-analysis of the deposited data

How the results depend on the processing

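Of the results recomputed under other settings, 60 values stayed within their interval or within 1.5 times and 54 moved. The medians of score and width moved only where ERα peaks were filtered by score or tag number, which removes low peaks by construction. In the order of members' share of ERα peaks, distance to the nearest member, members in chains and members within 10 kb of another list, a reciprocal overlap of 50% gave 82.6%, 131.0 kb, 10.5% and 37.8%. Counting a peak within 1 kb as touching gave 72.0%, 163.9 kb, 5.76% and 28.7%. The upper 50% of the ERβ and mock lists gave 80.7%, 135.9 kb, 8.75% and 22.2%, and leaving out windows of 20 or more mock peaks gave 87.4%, 163.4 kb, 6.48% and 31.4%. At 7 or more tags in all 3 lists they were 81.2%, 133.4 kb, 8.91% and 18.7%, with 1 chromosome past 1.5-fold against ERβ-alone. At 8 or more tags they were 66.9%, 384.8 kb, 9.07% and 18.9%, with 2 such chromosomes, a median score of 44.49, a width of 617 bp, 8 tags, 0% at 7 tags or fewer and a fold of 4.93. An ERα score of 50 or more gave 27.2%, 1774 kb, 4.12% and 46.8%, a score of 54.38, 640 bp, 10 tags, 0% at 7 tags or fewer, a fold of 5.65, and 4 chromosomes past 1.5-fold against each reference. The upper 50% of the ERα list gave 64.2%, 368.1 kb, 5.02% and 36.1%, a score of 43.55, 575 bp, 8 tags, 30.5% at 7 tags or fewer, a fold of 5.14 and 1 chromosome against mock-alone. Linking at 5 or 50 kb put 4.25% or 25.1% of members in chains. Few members pass the stricter limits (267 at a score of 50), so chromosome ratios there rest on few peaks. The planned look at sequence and genes was not run, since no genome of the files' build was used here. The settings by tag number were chosen after seeing the data.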

Other observations

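Exact scores recurred among members: 34.97 stood at 53 of them, 34.73, 34.83 and 35.9 at 43 each, and 35.21 at 42. Each of these scores fixed 1 width among members of 7 tags: 594 bp for 34.97, 599 bp for 34.73, 597 bp for 34.83, 575 bp for 35.9 and 589 bp for 35.21. All 15 ERα peaks with 6 tags on the 18 autosomes were members, and the exact binomial lower limit of that share is 78.2%.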
